A study of Mus musculus with 8 samples.

Results

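Tuft cells are rare chemosensory cells of the intestinal epithelium, and 9 genes that mark them were followed across the colon and ileum of mice with and without epithelial DDX5. The 9 genes, Dclk1, Trpm5, Pou2f3, Avil, Alox5ap, Il25, Ptgs1, Gnat3 and Sh2d6, were taken by symbol from the 40178 genes listed in the colon or the ileum table, and all 9 were found in both. RNAseq had been performed on intestinal epithelial cells (IECs) released with EDTA from the colon or the ileum of mice aged 8 weeks. WT mice were Ddx5+/+ and Vil1Cre+, and DDX5ΔIEC mice were DDX5 fl/fl and Vil1Cre+, so both genotypes carried the Cre recombinase driven by the Villin1 promoter, which is active throughout the intestinal epithelium and therefore in tuft cells and every other epithelial lineage. Each of the 4 groups (WT colon, DDX5ΔIEC colon, WT ileum and DDX5ΔIEC ileum) had 2 libraries from 2 mice. The study describes its animals as independent pairs of a DDX5ΔIEC mouse and a WT littermate housed together, without saying in the labels which mice form a pair, and the mouse numbers given by the study tie the colon and ileum libraries of the same genotype and replicate number to the same mouse.

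Tuft cells depend on the POU-domain factor Pou2f3, without which they do not form. They sense luminal compounds with a taste-like cascade in which a G protein, whose alpha subunit gustducin is encoded by Gnat3, acts through phospholipase C and calcium release on the cation channel Trpm5. Their known outputs are the cytokine IL-25, which acts on group 2 innate lymphoid cells, and the leukotrienes and prostaglandins made with the help of Alox5ap and Ptgs1. IL-13 from the lymphoid cells acts back on the epithelium and favours tuft and goblet cells, a loop known best from the small intestine. Dclk1 (a microtubule-associated kinase), Avil (advillin, an actin-bundling protein of the villin family) and Sh2d6 (a protein with an SH2 domain) are widely used as tuft cell markers.

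Library totals were between 11571061 and 22984283 counts. Ddx5 itself stood at 771 and 706 CPM (counts scaled to a common library size) in WT colon, 367 and 355 in DDX5ΔIEC colon, 700 and 700 in WT ileum, and 340 and 326 in DDX5ΔIEC ileum. The groups did not overlap in either tissue, and the 4 libraries labelled DDX5ΔIEC retained 48.9% of the WT mean in the colon and 47.6% in the ileum. These counts are for the whole gene, and the deleted part was not read separately. All 6 epithelial markers examined (Epcam, Cdh1, Vil1, Krt8, Krt18 and Cldn7) were detected in every library, at a summed level of 8390 to 14300 CPM. In DDX5ΔIEC ileum replicate 2, 3 repeat-like genes (Gm10800, Gm10801 and Gm21738) took 19.5% of all counts, against 0.226% in the other DDX5ΔIEC ileum library, 4.04% and 3.93% in WT ileum, and at most 0.261% in the colon. Results for the ileum are therefore also given without these genes and without that library.

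The genes are protein-coding and were placed with the GRCm38 annotation (GENCODE release M21, where the identifier and its version were the same as in the deposited tables), apart from Sh2d6 (ENSMUSG00000052631.14), whose version was not in that release and whose position is not given. Pou2f3 (ENSMUSG00000032015.16) spans chr9:43123939-43210369 on the minus strand. Gnat3 (ENSMUSG00000028777.8) spans chr5:17962549-18019834 and Alox5ap (ENSMUSG00000060063.9) spans chr5:149264767-149288153, both on the plus strand. Trpm5 (ENSMUSG00000009246.14) spans chr7:143069153-143094642 on the minus strand, where it overlaps Tssc4 on the other strand. Avil (ENSMUSG00000025432.11) spans chr10:127000709-127020994 on the plus strand and overlaps Tsfm on the other strand. Dclk1 (ENSMUSG00000027797.15), the longest of them, spans chr3:55242364-55539068. Ptgs1 (ENSMUSG00000047250.13) spans chr2:36230426-36252272. Il25 (ENSMUSG00000040770.5) spans chr14:54932695-54935837. The last 3 genes are on the plus strand.

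Because Pou2f3 belongs to the octamer-binding factors, the promoters of the genes (250 bases before to 50 after the start site, RefSeq, GRCm38.p6) were searched on both strands for the octamer ATGCAAAT and for its shorter core ATGCAAA, which every octamer also contains. Promoters were found for 6 of the 9 symbols, 7 promoters in all, and Pou2f3, Alox5ap and Il25 were not among them. The octamer was in 0 of the 7 promoters and in 1.74% of 32851 promoters of the same length. The core was in 1 of the 7, that of Avil, and in 4.63% of all. The 2 matches in the Avil promoter are shown as windows of 30 bases on the plus strand, 5′ to 3′, with the core in capitals (in the second window it reads in the opposite direction).
Avil, chr10:127000683-127000712: atgtggttatgATGCAAAcacaagcaaata
Avil, chr10:127000583-127000612: gttttcgctgtTTTGCATaggagcagataa
The first match lies 15 to 9 bases before the start site and the second 115 to 109 bases before it. These are matches of letters only, and no binding of Pou2f3 was measured in these libraries.

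Summed over the 9 genes, tuft cell transcripts were at 79.4 and 87.6 CPM in WT colon, 28.5 and 58.2 in DDX5ΔIEC colon, 387 and 581 in WT ileum, and 258 and 324 in DDX5ΔIEC ileum. The 4 groups thus had the same order in the sum, WT ileum, DDX5ΔIEC ileum, WT colon and DDX5ΔIEC colon, with no overlap between neighbours. The mean of the DDX5ΔIEC libraries was 51.9% of WT for colon and 60.1% for ileum, and the WT ileum mean was 5.8-fold that of WT colon. In bulk libraries such as these, fewer tuft cells and less RNA per tuft cell cannot be told apart.

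**Figure D1:**
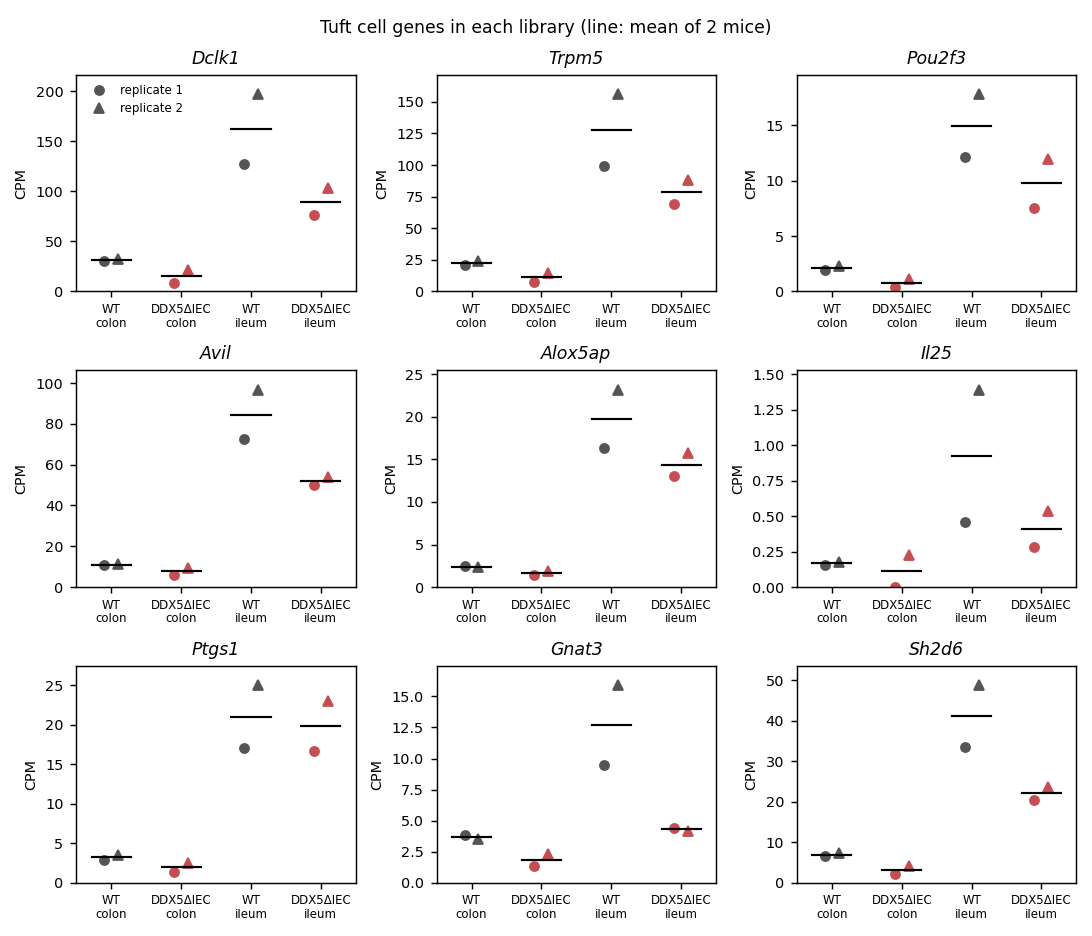
Level of each of the 9 tuft cell genes in each of the 8 libraries, in CPM on a linear axis that starts at 0, with replicate 1 as circles, replicate 2 as triangles and the mean of the 2 mice as a line. For all genes but Il25 both DDX5ΔIEC colon points lie below both WT colon points, and the ileum points lie above the colon points of the same genotype. The 2 ileum groups overlap for Ptgs1 and Il25.

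Relative to transcript length (CPM per kilobase), Avil led in WT ileum at 24.9 ± 5.05 (SD, n = 2), followed by Sh2d6 at 23.7 ± 6.26 and Trpm5 at 19.9 ± 6.29, which did not differ beyond the spread of the 2 mice. Alox5ap followed at 13.9 ± 3.46, Dclk1 at 10.6 ± 3.21 and Gnat3 at 9.31 ± 3.34, again without a gap larger than that spread. Ptgs1, at 5.40 ± 1.46, and Pou2f3, at 4.84 ± 1.29, were lower, and Il25 was lowest at 0.869 ± 0.615. In WT colon the same scale ran from Sh2d6 at 3.98 ± 0.362, Trpm5 at 3.51 ± 0.415 and Avil at 3.21 ± 0.119 to Pou2f3 at 0.685 ± 0.0791 and Il25 at 0.157 ± 0.0123. Gnat3 ranked 4 of 9 per kilobase in WT colon and 8 of 9 in DDX5ΔIEC ileum, where it stood at 3.15 ± 0.119. Il25 ranked last of the 9 in all 4 groups.

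The first comparison asked whether loss of epithelial DDX5 changed these genes in the colon. Of the 9 genes, 8 passed the filter on low counts, and all 8 were lower in both DDX5ΔIEC libraries than in both WT libraries, which was so for 20.7% of all genes. By the criterion used in the study, which asks for a change of 0.5 or more on the log2 scale and an unadjusted p below 0.05, 7 of the 8 were lower and 0 higher (edgeR quasi-likelihood test, blocked on the replicate number), against 3.67% and 3.04% of all genes. After Benjamini-Hochberg adjustment over 15362 genes, 0 of the 8 were called, as was 0.0% of all genes, although 948 genes were lower and 888 higher at an unadjusted p under 0.05. The median log2 fold change was -1.04 over the 8 genes and 0.0 over all genes tested. The 9 genes were chosen with earlier results of these data known, so the shares over all genes are no independent test.

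The lineage factor Pou2f3 was at 1.94 and 2.29 CPM in WT colon and at 0.386 and 1.14 in DDX5ΔIEC colon, which rests on 7 to 52 counts per library. Its log2 fold change, -1.52 (SE 0.42), was the largest in size of the 8, with an adjusted p of 0.328 by edgeR. DDX5ΔIEC replicate 1 was the lower of the 2 knockout libraries, as it was for all 9 genes.

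In the taste-like cascade, Trpm5 was at 20.6 and 24.3 CPM in WT and 7.73 and 14.9 in DDX5ΔIEC colon. It had the smallest p of the 8, with a log2 fold change of -1.05 (SE 0.20), an unadjusted p of 0.00342 and an adjusted p of 0.261 by edgeR. Gnat3, which encodes the G protein subunit upstream of the channel, was at 3.83 and 3.52 CPM in WT and 1.32 and 2.32 in DDX5ΔIEC. Its log2 fold change was -1.03 (SE 0.32), close to that of Trpm5.

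Of the cytoskeletal and adaptor markers, Dclk1 was at 30.5 and 32.9 CPM in WT colon and at 8.33 and 21.9 in DDX5ΔIEC colon. Its log2 fold change was -1.20 (SE 0.31). Sh2d6 went from 6.46 and 7.35 CPM to 1.99 and 4.01, a log2 fold change of -1.26 (SE 0.27). The decrease of Avil was smaller, from 10.6 and 11.2 CPM to 5.91 and 9.30, with a log2 fold change of -0.56 (SE 0.21).

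Among the genes of lipid mediator synthesis, Ptgs1 (cyclooxygenase-1) was at 2.89 and 3.48 CPM in WT colon and 1.38 and 2.46 in DDX5ΔIEC colon, with a log2 fold change of -0.76 (SE 0.28). Alox5ap, the protein that presents arachidonic acid to 5-lipoxygenase, was at 2.42 and 2.33 CPM in WT and 1.43 and 1.87 in DDX5ΔIEC. Its log2 fold change of -0.53 (SE 0.28, unadjusted p of 0.119 by edgeR) was the only one of the 8 that did not meet the study's criterion. Il25 had 3 and 4 counts in the WT libraries and 0 and 5 in the DDX5ΔIEC libraries, too few for the test, and the 0 allows a level of up to 0.166 CPM (3 counts), which is above the 0.158 CPM of WT replicate 1. No difference in Il25 was detectable in the colon at this depth.

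The size of the decrease in the colon rested on the DDX5ΔIEC library chosen. Against WT replicates 1 and 2, DDX5ΔIEC replicate 1 had a median log2 difference over the 8 genes of -1.47 and -1.53, while replicate 2 had -0.47 and -0.59; all 8 genes were lower in each of the 4 pairs. With replicate 1 of DDX5ΔIEC left out, the 8 log2 fold changes ran from -0.91 to -0.24. With replicate 2 of DDX5ΔIEC left out, they ran from -2.45 to -0.74. Without WT replicate 1, 2 of the 8 met the study's criterion, and without WT replicate 2, 0 did. These fits have no replicate block and leave 1 library in a group, which is then assumed to vary as the other group does.

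The second comparison asked the same in the ileum, where 8 of the 9 genes were again tested and 7 were lower in both DDX5ΔIEC libraries than in both WT libraries, against 20.0% of all genes. With the replicate block, 3 of the 8, Gnat3, Dclk1 and Sh2d6, fell with an adjusted p below 0.05 by edgeR over 14068 genes, against 0.32% of all genes, and 6 of the 8 were lower and 0 higher by the study's criterion, against 3.48% and 3.87%. In simulated ileum data, 54 of 224 adjusted calls of the blocked fit fell on unchanged genes. No difference between replicate numbers was simulated, but these calls may be less certain than their adjusted p states. Without the block 0 of the 8 tuft cell genes had an adjusted p below 0.05 and 5 met the criterion. The folds hardly moved: without the block Gnat3 was at -1.55, Dclk1 at -0.85 and Sh2d6 at -0.90, with adjusted p of 0.349, 0.555 and 0.476 by edgeR. Without the 3 repeat-like genes the 3 calls were also lost, while the log2 fold changes were -1.50, -0.82 and -0.87 (adjusted p of 0.0580, 0.0580 and 0.0725) and 6 of 8 still met the criterion. The fits with any 1 of the 4 libraries left out also had no block, so they do not show the effect of the library alone. Their log2 fold changes ran from -1.89 to -1.14 for Gnat3, from -1.13 to -0.50 for Dclk1 and from -1.15 to -0.60 for Sh2d6. The count that met the criterion was 7 without WT replicate 1, 2 without WT replicate 2, 4 without DDX5ΔIEC replicate 1 and 6 without DDX5ΔIEC replicate 2; Il25 also passed the filter in 3 of these fits, all but that without WT replicate 2, so that they tested 9 genes. The median log2 fold change over the 8 genes was -0.68, against 0.0 over all genes tested.

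Gnat3 fell furthest, from 9.46 and 15.9 CPM in WT ileum to 4.40 and 4.18 in DDX5ΔIEC ileum, a log2 fold change of -1.51 (SE 0.24, adjusted p of 0.0265 by edgeR). The 2 knockout libraries were close to each other and close to the WT colon libraries, at 3.83 and 3.52 CPM. Trpm5, the channel downstream of it, was at 99.1 and 156 CPM in WT and 69.3 and 87.9 in DDX5ΔIEC ileum, with a log2 fold change of -0.67 (SE 0.14, adjusted p of 0.0743 by edgeR). Pou2f3 was at 12.1 and 17.8 CPM in WT and 7.50 and 12.0 in DDX5ΔIEC, so that its lower WT library was hardly above its higher knockout library. Its log2 fold change was -0.63 (SE 0.18, adjusted p of 0.166 by edgeR).

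Dclk1 was at 127 and 197 CPM in WT ileum and at 76.4 and 103 in DDX5ΔIEC ileum. It fell by 0.83 on the log2 scale (SE 0.14, adjusted p of 0.0274 by edgeR). Sh2d6 went from 33.5 and 48.8 CPM to 20.5 and 23.6, and fell by 0.88 on that scale (SE 0.16, adjusted p of 0.0331 by edgeR). Avil, the most abundant of the genes per kilobase, was at 72.4 and 96.7 CPM in WT and 50.0 and 53.9 in DDX5ΔIEC, with a log2 fold change of -0.69 (SE 0.14, adjusted p of 0.0634 by edgeR).

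The lipid mediator genes differed least. Ptgs1 was at 17.0 and 25.0 CPM in WT ileum and at 16.7 and 23.0 in DDX5ΔIEC ileum, so the groups overlapped, and its log2 fold change was -0.07 (SE 0.16, adjusted p of 0.912 by edgeR). Alox5ap was at 16.3 and 23.2 CPM in WT and 13.0 and 15.8 in DDX5ΔIEC, without overlap, and its log2 fold change was -0.44 (SE 0.16, adjusted p of 0.309 by edgeR). Il25 was at 0.461 and 1.39 CPM in WT and 0.281 and 0.535 in DDX5ΔIEC, or 10, 20, 3 and 5 counts in these 4 libraries. Its groups overlapped, and it was not tested.

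The WT libraries differed from each other in the ileum, replicate 2 being higher for all 9 genes. Against WT replicate 1 the median log2 difference over the 8 genes was -0.61 for DDX5ΔIEC replicate 1 and -0.24 for replicate 2, and against WT replicate 2 it was -1.21 and -0.84. All 8 genes were lower in 3 of the 4 pairs and 7 in the pair of DDX5ΔIEC replicate 2 with WT replicate 1, in which Ptgs1 was 0.44 higher on the log2 scale. Trpm5, Dclk1 and Sh2d6 moved together over the 8 libraries: after the mean of each tissue was removed, Pearson's r was 0.99 between Dclk1 and Trpm5 and 0.99 between Trpm5 and Sh2d6. Pou2f3 stood close to them, at 0.98 with Dclk1 and 0.98 with Trpm5. These values describe 8 points that share library and mouse, and the difference between genotypes remains in them. The lowest of all pairs was that of Ptgs1 and Gnat3, at 0.63.

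**Figure D2:**
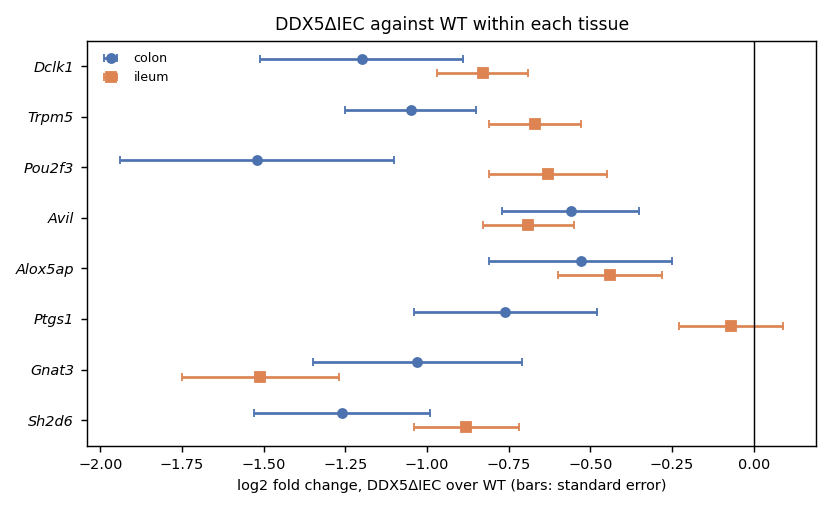
Log2 fold change of DDX5ΔIEC over WT for the 8 tuft cell genes tested, with colon as circles and ileum as squares, and bars showing the standard error of the edgeR fit. All 16 points lie below 0, from -1.52 for Pou2f3 in the colon to -0.07 for Ptgs1 in the ileum, whose bar crosses 0.

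The third comparison set the ileum against the colon within each genotype. In WT mice all 8 genes tested were higher in the ileum (adjusted p between 3.07e-05 and 0.00256, edgeR over all 8 libraries), against 17.4% of all genes. The log2 fold changes ran from 1.77 (SE 0.31) for Gnat3 and 2.35 (SE 0.39) for Dclk1 to 2.95 (SE 0.22) for Avil and 3.05 (SE 0.24) for Alox5ap. On the linear scale this was a 3.45-fold higher mean level of Gnat3 and an 8.32-fold higher level of Alox5ap. Both WT ileum libraries lay above both WT colon libraries for all 8 genes, as for 35.3% of all genes.

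In DDX5ΔIEC mice all 8 genes were again higher in the ileum, against 18.0% of all genes, with adjusted p between 5.03e-05 and 0.0300 by edgeR. Gnat3 again had the smallest difference, 1.21 (SE 0.36) on the log2 scale, and Pou2f3 the largest, 3.61 (SE 0.44), followed by Ptgs1 at 3.34 (SE 0.32). For Gnat3 this call was lost without DDX5ΔIEC colon replicate 1 (log2 fold change 0.88, adjusted p of 0.131 by edgeR), without DDX5ΔIEC ileum replicate 1 (1.16, 0.102) and without DDX5ΔIEC ileum replicate 2 (1.27, 0.0690). Both DDX5ΔIEC ileum libraries also lay above both WT colon libraries for all 8 genes, as for 32.9% of all genes, so the lower level in DDX5ΔIEC ileum was still above that in WT colon. For Gnat3 that margin was small, 4.18 CPM in the lower ileum library against 3.83 CPM in the higher colon library. Il25 reached 20 counts in 1 WT ileum library and at most 5 in any colon library.

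**Figure D3:**
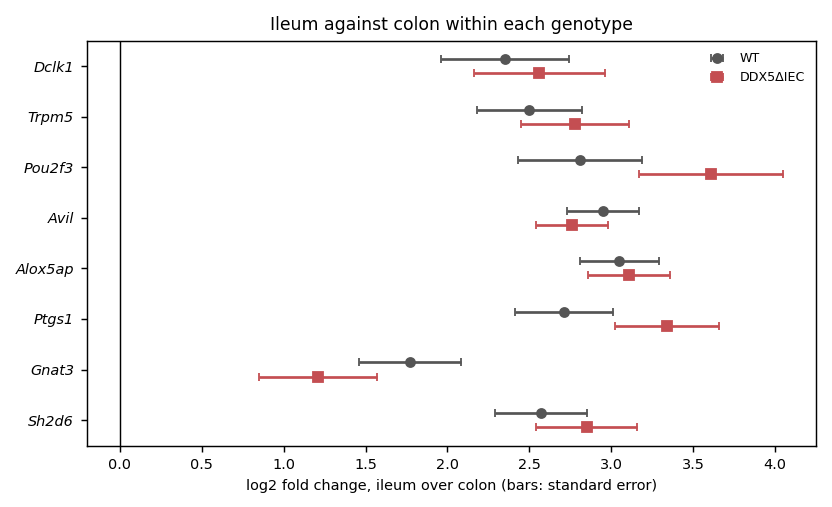
Log2 fold change of ileum over colon for the 8 tuft cell genes tested, in WT (circles) and DDX5ΔIEC (squares), with bars showing the standard error of the edgeR fit over all 8 libraries. All points lie above 0, Gnat3 being lowest in both genotypes at 1.77 and 1.21.

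Whether the effect of genotype differed between the tissues was tested as an interaction. For 0 of the 8 genes was it significant, against 0.0124% of all genes (2 of 16178), and 0 of the 8 had an unadjusted p below 0.05 by edgeR; DESeq2 also called 0 of the 8. The estimates ran from -0.56 (SE 0.47) for Gnat3, whose decrease was nominally larger in the ileum, to 0.81 (SE 0.59) for Pou2f3, whose decrease was nominally larger in the colon. The smallest p belonged to Ptgs1, whose estimate was 0.63 (SE 0.43, unadjusted p of 0.180 by edgeR). The standard errors of these estimates lay between 0.30 and 0.59 on the log2 scale. With the mouse as a block, 2 of the 8 had an unadjusted p below 0.05 by edgeR, and 0 had an adjusted p below 0.05.

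Because Gnat3 and Ptgs1 stood at opposite ends of the ileum changes, their counts were also divided within each library, which removes library size; this pair was chosen after its values were seen. Gnat3 had 1.33 and 1.01 counts per Ptgs1 count in WT colon and 0.960 and 0.944 in DDX5ΔIEC colon. The ratio was 0.557 and 0.636 in WT ileum and 0.264 and 0.181 in DDX5ΔIEC ileum. The 4 groups did not overlap, and the lowest values were those of DDX5ΔIEC ileum. Gnat3 per Trpm5 was 0.0955 and 0.102 in WT ileum and 0.0635 and 0.0475 in DDX5ΔIEC ileum. In the colon the same ratio overlapped between the genotypes, at 0.186 and 0.145 against 0.171 and 0.155. Ptgs1 per Trpm5 was higher in both DDX5ΔIEC ileum libraries, at 0.241 and 0.262, than in both WT ileum libraries, at 0.171 and 0.160. It was also higher in both DDX5ΔIEC colon libraries, at 0.179 and 0.165, than in both WT colon libraries, at 0.14 and 0.143. With 2 libraries against 2, the smallest two-sided p of an exact permutation test is 0.333, so no single ratio can pass a threshold of 0.05. These ratios depend on small numbers, since Gnat3 had 47 and 39 counts in the DDX5ΔIEC ileum libraries.

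**Figure D4:**
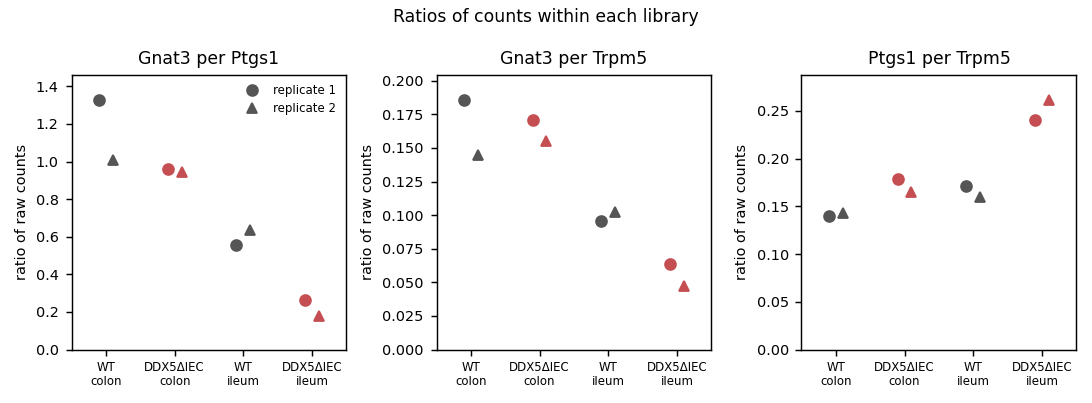
Ratio of raw counts of Gnat3 to Ptgs1, Gnat3 to Trpm5 and Ptgs1 to Trpm5 within each of the 8 libraries, on linear axes that start at 0, with replicate 1 as circles and replicate 2 as triangles. The DDX5ΔIEC ileum libraries have the lowest Gnat3 ratios of all libraries (0.264 and 0.181 per Ptgs1) and the highest Ptgs1 per Trpm5 ratios (0.241 and 0.262).

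The other genes that mark tuft cells were taken as 38 genes in 5 lists, the signalling cascade, kinases and adaptors, eicosanoid synthesis, transcription factors, and surface and structural proteins. The lists, too, were chosen with earlier results of these data known. In the colon 31 were tested, of which 14 were lower and 1 higher by the study's criterion (3.67% and 3.04% of all genes) and 0 had an adjusted p below 0.05 (edgeR; with DESeq2 and the block, 11 were lower by the criterion and 0 had an adjusted p below 0.05). Their median log2 fold change was -0.75, against 0.0 over all genes, and 27 of the 31 had a negative value. The fits with 1 library left out, given next, had no block. The median log2 fold change was -0.74 without WT colon replicate 1 and -0.66 without WT colon replicate 2. Fewer genes met the criterion in both of these fits than with all libraries. The median was -0.51 without DDX5ΔIEC colon replicate 1 and -1.16 without DDX5ΔIEC colon replicate 2.

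In the ileum 35 were tested, of which 17 were lower and 1 higher by the criterion, with a median of -0.53 and 29 negative values. Over all genes 3.48% were lower and 3.87% higher by the criterion. Adjusted p called 5 of the 35 lower by edgeR, against 0.32% of all genes. Without the block adjusted p called 0, with a median of -0.55 and 15 lower by the criterion, and without the repeat-like genes it called 0, with a median of -0.53 and 17 lower. DESeq2 with the block called 0 by adjusted p and 13 lower by the criterion. With any 1 library left out, and no block, the median ran from -0.77 to -0.28. Without WT ileum replicate 2, 7 were lower by the criterion, and without DDX5ΔIEC ileum replicate 1, 10 were.

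By list, the kinases and adaptors, which carry receptor signals in tuft cells as they do in leukocytes, had most of their members below WT. In the colon 5 of 8 were lower by the criterion, among them Vav1 (log2 fold change -1.17), Fyb (-1.43) and Bmx (-1.30). In the ileum 6 of 8 were lower, with Lrmp (-0.81, adjusted p of 0.0465 by edgeR) and Vav1 (-0.79, adjusted p of 0.0476) past the adjusted threshold. Lrmp was at -0.12 (SE 0.21) in the colon.

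In the signalling list, the phospholipases Plcb2 and Plcg2, which release calcium stores upstream of Trpm5, had log2 fold changes of -1.08 and -0.75 in the colon. In the ileum Plcg2 was at -0.64 and met the criterion, and Rgs13, a regulator of G protein signalling, fell by 0.96 (adjusted p of 0.0376 by edgeR). The taste receptor subunit Tas1r3 was the 1 gene that was higher by the criterion in the colon, at 0.71 (SE 0.27). Of 8 signalling genes tested in the colon 2 were lower and 1 higher by the criterion, and of 10 in the ileum 2 were lower. The inositol trisphosphate receptor Itpr3, which is also expressed in other epithelial cells, was at 0.02 (SE 0.09) in the colon and -0.28 (SE 0.16) in the ileum.

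In the eicosanoid list, Alox5 (5-lipoxygenase, the partner of Alox5ap) had a log2 fold change of -1.13 (SE 0.32) in the colon and fell by 0.84 (SE 0.15, adjusted p of 0.0336 by edgeR) in the ileum. Hpgds (prostaglandin D synthase) was at -0.77 (SE 0.18) in the ileum. Ptges (prostaglandin E synthase) was in the opposite direction, at 2.07 (SE 0.50) in the ileum, where it rests on 11 and 4 counts in WT and 22 and 12 in DDX5ΔIEC libraries, with an adjusted p of 0.109 by edgeR. In the colon 1 of 4 tested was lower by the criterion, and in the ileum 2 of 5 were lower and 1 higher.

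Among the transcription factors, Spib was lower by the criterion in both tissues, at -0.75 (SE 0.20) in the colon and -0.69 (SE 0.16) in the ileum. Runx1 (-0.57) and Gfi1b (-1.10) met it in the ileum, while in the colon Runx1 was at -0.35 (SE 0.17) and Gfi1b was not tested. Of the surface and structural genes, the criterion was met by 5 of 7 in colon and 4 of 7 in ileum, all lower. Cd300lf, a receptor of the CD300 family, had the largest decrease of the list in both tissues, -1.93 (SE 0.43) in the colon and -1.33 (SE 0.21, adjusted p of 0.0265 by edgeR) in the ileum. Tuba1a, a tubulin, was at -1.23 and -0.83, and Chat, the enzyme that makes acetylcholine, at -1.40 and -0.53. Krt23 was at -0.89 in the colon, and Siglecf at -0.55 in the ileum.

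**Figure D5:**
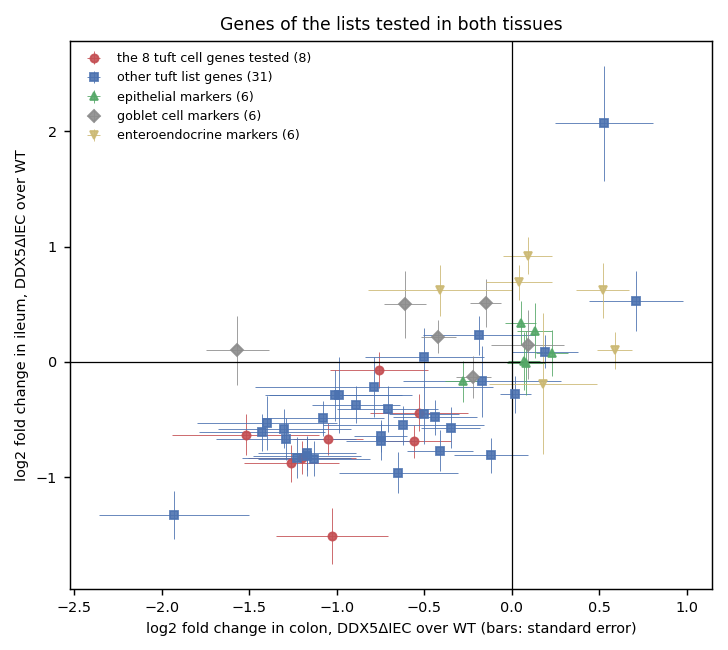
Log2 fold change of DDX5ΔIEC over WT in the colon (horizontal axis) against the ileum (vertical axis) for genes tested in both tissues: 8 tuft cell genes, 31 genes of the other tuft lists, and 6 epithelial, 6 goblet and 6 enteroendocrine markers, with bars showing standard errors. Most tuft genes lie in the lower left with negative values in both tissues, the epithelial markers lie near 0, and the tuft list gene far above the others in the ileum is Ptges at 2.07.

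Between tissues, 29 of 35 genes of these lists were higher and 1 lower in WT ileum than in WT colon (adjusted p below 0.05 by edgeR, against 17.4% and 16.8% of all genes), with a median log2 fold change of 2.28, close to the 2.64 of the 8 tuft cell genes. In DDX5ΔIEC mice 27 were higher, against 18.0% of all genes, and the median was 2.46. The inducible cyclooxygenase Ptgs2 had the largest difference in WT, 6.61 (SE 0.82), and the succinate receptor Sucnr1 followed with 5.06 (SE 0.55). Both sizes rest on few counts in the WT colon libraries, 1 and 2 for Ptgs2 and 5 and 7 for Sucnr1. Siglecf (3.42) and Cd300lf (2.85) were also higher, and Ptges was the gene that was lower, at -1.90 (SE 0.44). The transcription factor Runx1 (-0.39), the kinase Fes (-0.36) and the prostaglandin D synthase Hpgds (0.48) did not pass.

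The type 2 circuit downstream of tuft cells was read from 11 listed genes. The lymphoid cytokines Il4, Il5 and Il13 had at most 4 counts in any library. In the colon 5 of 7 genes tested were lower by the criterion, against 3.67% of all genes, and 0 had an adjusted p below 0.05 by edgeR. They were Retnlb, a goblet cell protein induced by IL-13, which went from 1030 and 1150 CPM to 98.8 and 364 (log2 fold change -2.53, SE 0.43), the gasdermins Gsdmc2 (-1.59, SE 0.11), Gsdmc4 (-1.06, SE 0.17) and Gsdmc3 (-0.84, SE 0.10), and the receptor subunit Il4ra (-0.55, SE 0.12). Stat6, the transducer of the IL-4 receptor, was at -0.05 (SE 0.10). In the ileum 2 of 7 were lower by the criterion, Gsdmc2 (-0.61, SE 0.20) and Gsdmc4 (-0.55, SE 0.23), against 3.48% of all genes. Retnlb was at 0.04 (SE 0.16) there.

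Ranking 13678 genes by Pearson's correlation of their log2 level with the mean profile of the 8 tuft cell genes over the 8 libraries put Ccdc129 (r = 0.989), Pik3r5 (0.988), St18 (0.987), Alox5 (0.986), Phf11c (0.984), Pik3cg (0.981), Adcy5 (0.978), Gm43149 (0.974) and Limd2 (0.974) near the front. Pik3r5 and Pik3cg encode the regulatory and catalytic subunits of phosphoinositide 3-kinase gamma. Of the 34 ranked genes of the other tuft lists, 16 were among the first 100. The mean of each tissue was first removed from each gene, so the difference between ileum and colon does not enter these values. They are descriptions of 8 points that share library and mouse, and the difference between genotypes remains in them.

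Several other marker lists moved with the tuft cell genes in the colon. Over all genes the criterion called 3.67% lower in the colon and 3.48% lower in the ileum. A list of 7 T cell and leukocyte markers was at 46.3 and 35.9 CPM in WT colon and 6.62 and 18.7 in DDX5ΔIEC colon, with 5 of 7 lower by the criterion and a median log2 fold change of -2.22. In the ileum its sum was 104 and 91.9 CPM in WT and 106 and 60.7 in DDX5ΔIEC, and 0 of 6 met the criterion. Ptprc, the pan-leukocyte marker CD45, which small intestinal tuft cells are also known to express, was at 22.2 and 19.9 CPM in WT colon and 5.41 and 10.9 in DDX5ΔIEC colon, and at 46.2 and 67.8 against 42.0 and 42.2 in the ileum. The 5 myeloid markers, a lineage that also expresses Alox5ap and Alox5, summed to between 1.71 and 9.74 CPM in every library. In colon libraries this sum was 3.89 and 2.86 CPM in WT and 1.71 and 2.42 in DDX5ΔIEC, with 0 of 3 tested genes meeting the criterion.

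Goblet cell markers summed to 44300 and 49800 CPM in WT colon and 25500 and 39700 in DDX5ΔIEC colon, with 2 of 6 lower by the criterion. Those 2 were Clca1 (log2 fold change -1.57) and Fcgbp (-0.61). Muc2 was at 0.09 there, Tff3 at -0.15, Agr2 at -0.22 and Spdef at -0.42. In the ileum the goblet sum was 26100 and 22400 CPM in WT against 30800 and 27000 in DDX5ΔIEC, with 1 of 6 higher. The list of Paneth cell markers, of which Ang4 and Itln1 are also made in the colon, summed to 1390 and 1580 CPM against 218 and 427 in the colon, 2 of 4 lower by the criterion, and 0 of 5 met it in the ileum. In the other direction, 4 of 5 colonic absorptive markers and 2 of 6 enteroendocrine markers were higher by the criterion in DDX5ΔIEC colon, as were 4 of 6 enteroendocrine markers in DDX5ΔIEC ileum. The part that these shifts in other cell types had in the lower level of the tuft cell genes was not tested. Of the epithelial markers themselves 0 of 6 met the criterion in either tissue, with median log2 fold changes of 0.07 and 0.04. Stem cell markers had 0 of 4 past the criterion in both tissues. Over all genes the criterion called 3.67% lower and 3.04% higher in the colon, and 3.48% and 3.87% in the ileum.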

How the data were processed

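The authors released IECs with EDTA, depleted ribosomal RNA, sequenced paired ends, aligned reads to mm10 with STAR 2.6.1a and counted uniquely mapped exon reads with featureCounts (GENCODE vM19). The deposited values used here are raw counts per gene, in one table per tissue (28349 colon and 38649 ileum genes, 26820 in both). Neither table lists a gene at 0 in all its libraries, so a gene missing from a table was counted as 0. Strand setting of the counting is not given in the sources used here, so reads of Trpm5 and Avil cannot be told from those of the protein-coding genes overlapping on the other strand. Dclk1 also overlaps Gm19817, Gm42607 and Gm42608 on its own strand (at most 99, 65 and 43 counts in a library), and the other genes overlapping Dclk1, Alox5ap and Ptgs1 that are in the tables had at most 16 counts. The deposited tables also hold the authors' normalized values and comparison columns (fold changes and p-values), which were not used.

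Counts were analysed in R 4.3.3 with edgeR 4.0.16: TMM scaling, filterByExpr with a minimum count of 10, and quasi-likelihood tests, with Benjamini-Hochberg adjustment over all genes tested. Genotype was compared within each tissue with the replicate number as a block, since the study's own model had a harvest covariate (DESeq2 1.18.1). The tissue comparisons and the interaction used all 8 libraries with a mean per group and no block. Standard errors were the log2 fold change divided by the square root of F. CPM used TMM factors over all 8 libraries. The number of libraries limits precision, and intervals or floors cover counting error only. Alternatives were DESeq2 1.42.0, RLE size factors, no filter, no block, other libraries in the fit and each library left out. The genotype fits with 1 library left out had no block. Deviations of same-numbered genotype pairs correlated at 0.00559 in the colon and 0.24024 in the ileum; colon and ileum libraries of the same mouse correlated at 0.140 in WT and 0.142 in DDX5ΔIEC. The scripts were tested on simulated data with 200 changed genes. With the replicate block, 54 of 224 adjusted calls in the ileum and 54 of 217 in the colon fell on unchanged genes. Without it these were 28 of 192 and 31 of 190. For WT ileum against WT colon over 8 libraries, 8 of 165 did. In these simulated data the adjusted calls of the genotype fits held more false calls than the threshold allows, and most with the block. No difference between replicate numbers was simulated, so the share of false calls in the deposited data is not known. The 9 genes and all lists were chosen with earlier results of these data known. All 9 are named, and of the other tuft and type 2 lists up to 4 genes per list and comparison that passed a threshold, by p; a few more were named after their values were seen. One gene of the other tuft lists is counted in the lists but not reported here by name.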

Additional observations from a re-analysis of the deposited data

How the results depend on the processing

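Statements are for the 8 tuft cell genes tested. With no filter, and in some fits with 1 library left out, Il25 was tested as well, making 9. Genotype fits with 1 library left out also had no replicate block. Genes with an adjusted p below 0.05 in the colon numbered 0 and remained at 0 without the block, but were 2 with DESeq2 and the replicate block (Dclk1 and Trpm5). Those that met the study's criterion, 7, became 5 without the replicate block, 3 with DESeq2 and the block, 4 with DESeq2 and no block, and 0 to 7 with 1 library left out. In the ileum the 3 adjusted calls became 0 with no replicate block, 1 with DESeq2 and the replicate block, 1 with DESeq2 and no block, 6 with no filter on low counts, 0 without the 3 repeat-like genes, 0 with all 8 libraries in one fit and 0 to 0 with 1 library left out. The criterion in the ileum was met by 6 genes and by 2 to 7 with 1 library left out. The direction in the colon was negative under every alternative. In the ileum Ptgs1 ranged from -0.33 to 0.22 with 1 library left out, positive without WT replicate 2 (0.22) and without DDX5ΔIEC replicate 1 (0.15). Ileum over colon kept its direction in both genotypes under every alternative, and its calls too, except that of Gnat3 in DDX5ΔIEC in 3 of the fits with 1 library left out. With the mouse as a replicate block the adjusted calls were 8, 8 and 0 for WT, DDX5ΔIEC and the interaction, as without it. For the interaction, 2 of the 8 then had an unadjusted p below 0.05 by edgeR, against 0 without that block. Interaction estimates, none of them called, changed sign with 1 library left out for Dclk1 (-0.31 to 1.08), Trpm5 (-0.11 to 0.84), Avil (-0.47 to 0.18), Alox5ap (-0.18 to 0.34) and Sh2d6 (-0.11 to 0.90). The causes were not tested. Littermate pairs are described by the study but not tied to replicate numbers, and same-numbered genotype pairs correlated at 0.24024 in the ileum and 0.00559 in the colon, so the basis of the blocked calls in the ileum is uncertain; Gnat3 was at -1.51 with the block and -1.55 without it. In simulated data with no replicate difference, the blocked genotype fits also made more adjusted calls on unchanged genes than the threshold allows. That caution covers the ileum calls of the other tuft lists too. Depth limits Il25 in all libraries and Pou2f3 in the colon.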
